A study of Mus musculus with 16 samples.

Results

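The 9 genes described here encode surface antigens with which stem and progenitor cells of mouse bone marrow are stained and sorted: Kit, Ly6a, Cd34, Cd48, Slamf1, Procr, Eng, Cd27 and Cd24a. They were taken by gene symbol from the count table and all 9 were found among its 54347 genes. All 9 passed the filter on low counts in every comparison. RNA was sequenced from 2 sorted bone marrow populations of 8 to 12 week old C57BL/6 mice, with 4 mice in each of the 4 groups and 16 libraries in all. UREΔ mice carry a germline deletion, on both alleles, of the upstream regulatory element (URE), an enhancer of Spi1, the gene of the transcription factor PU.1. They were studied before leukemia and compared with wild-type (WT) littermates. Because the deletion is germline, it is present in every cell of the mouse and not in blood cells alone. LSKs (Lin-Sca-1+c-Kit+ cells) hold the stem cells and multipotent progenitors, and granulocyte-macrophage progenitors (GMPs) were sorted as Lin-Sca-1-c-Kit+Cd16/32+ cells. Both populations had been enriched for c-Kit before the sort.

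Surface antigens divide the LSK compartment into subsets. In adult mice, the cells with the longest repopulating activity are found among LSKs with little CD34, with CD150 (Slamf1) and without CD48, and many of them carry EPCR (Procr) and endoglin (Eng). CD34, CD27 and CD48 are in general gained as LSKs become multipotent progenitors, and GMPs carry CD34 but no Sca-1 (Ly6a). Kit is the receptor tyrosine kinase for stem cell factor and is carried by both populations. Transcript levels in bulk RNA do not give the antigen on the cell surface, and in these data fewer cells of a type and less RNA per cell cannot be told apart.

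All 9 are annotated as protein-coding genes (GRCm38, GENCODE M21). On chromosome 1 lie Cd48 (ENSMUSG00000015355, chr1:171682009-171705258, plus strand), Slamf1 (ENSMUSG00000015316, chr1:171767127-171801184, plus strand) and Cd34 (ENSMUSG00000016494, chr1:194938819-194961279, plus strand). On chromosome 2 lie Eng (ENSMUSG00000026814, chr2:32646595-32682669, plus strand) and Procr (ENSMUSG00000027611, chr2:155751117-155755471, plus strand). The others lie apart from each other, Kit at chr5:75574916-75656722 (ENSMUSG00000005672, plus strand), Cd27 at chr6:125232622-125237010 (ENSMUSG00000030336, minus strand), Cd24a at chr10:43578284-43584265 (ENSMUSG00000047139, plus strand) and Ly6a at chr15:74994877-74998031 (ENSMUSG00000075602, minus strand). The values are transcript estimates summed per gene and do not separate its isoforms.

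Upstream sequences are shown first for members that had a window and whose level moved in both cell types or whose window held a motif. Upstream windows from RefSeq (GRCm38.p6), each running from 250 bases before to 50 bases after a start site, were found for 7 of the 9 members, not for Ly6a and Cd24a. They were searched on both strands for the core of PU.1 sites, spelled GAGGAA. The same search was made for the core of RUNX sites, spelled TGTGGT. A core bound by factors of the GATA family was searched as well, spelled AGATAA. No 2 of these motifs overlapped one another in a member. The sequences below are the part of the window before both the RefSeq and the GENCODE starts, written 5′ to 3′ on the strand of the gene, with motif matches in capitals. Cd34 and Cd27 are shown because their transcripts fell in UREΔ cells, and neither window held any of the 3 motifs. Kit and Eng are shown because theirs held the PU.1 core, which in Eng reads in reverse complement, and Cd48 because its window held the RUNX core.
Cd34 (chr1:194938571-194938818, plus strand): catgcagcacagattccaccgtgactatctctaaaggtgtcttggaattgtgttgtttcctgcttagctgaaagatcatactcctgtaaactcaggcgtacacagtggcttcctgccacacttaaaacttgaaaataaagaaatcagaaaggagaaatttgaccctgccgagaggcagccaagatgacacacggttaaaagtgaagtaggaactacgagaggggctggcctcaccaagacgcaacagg
Cd27 (chr6:125237028-125237277, minus strand): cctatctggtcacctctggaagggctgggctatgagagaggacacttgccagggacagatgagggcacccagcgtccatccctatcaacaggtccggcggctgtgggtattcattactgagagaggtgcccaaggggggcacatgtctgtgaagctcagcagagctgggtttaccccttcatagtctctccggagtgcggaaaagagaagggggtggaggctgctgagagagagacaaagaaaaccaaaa
Kit (chr5:75574737-75574915, plus strand): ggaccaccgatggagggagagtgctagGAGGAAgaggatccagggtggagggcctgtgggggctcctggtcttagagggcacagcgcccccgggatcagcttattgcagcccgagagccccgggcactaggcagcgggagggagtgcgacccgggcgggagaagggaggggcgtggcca
Eng (chr2:32646345-32646594, plus strand): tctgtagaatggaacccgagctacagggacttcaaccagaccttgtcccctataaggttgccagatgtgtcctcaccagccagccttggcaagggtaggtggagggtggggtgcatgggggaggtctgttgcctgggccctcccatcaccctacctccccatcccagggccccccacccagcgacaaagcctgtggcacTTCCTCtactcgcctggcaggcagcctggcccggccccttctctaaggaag
Cd48 (chr1:171681742-171681991, plus strand): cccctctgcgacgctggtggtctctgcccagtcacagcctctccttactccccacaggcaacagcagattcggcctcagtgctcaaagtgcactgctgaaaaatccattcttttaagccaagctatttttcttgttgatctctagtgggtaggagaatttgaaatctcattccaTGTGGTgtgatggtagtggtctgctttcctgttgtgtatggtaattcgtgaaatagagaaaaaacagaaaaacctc
The PU.1 core thus occurred in 2 of 7 members, while 28.1% of the 32544 promoters in the RefSeq table held it. It lay 223 and 227 bases before the 2 RefSeq start sites of Kit and 51 bases before that of Eng. The RUNX core was found in 1 of 7 members, 76 bases before the start of Cd48, against 16.7% of all promoters. The GATA core was found in 0 of 7, against 11.2%. These counts were the same with the bases after the start left out. A match describes letters in a short window only, and most enhancers lie outside it.

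Spi1 was examined first as the targeted gene. Its level was 127, 69.5, 134 and 166 CPM (counts scaled to library size, with edgeR's TMM factors) in WT LSK replicates 1 to 4, and 2.85, 4.44, 3.67 and 1.13 CPM in UREΔ LSKs. In WT GMPs it was 139, 84.8, 181 and 153 CPM, and in UREΔ GMPs 17.4, 28.6, 23.6 and 15.6 CPM. The mutant retained 2.43% of the WT mean in LSKs and 15.2% in GMPs. Total counts per library lay between 20028302 and 29128858. From Xist and Y-linked transcripts, 3 of 4 WT mice and 1 of 4 UREΔ mice were male in either cell type, so that genotype and sex were partly aligned. Replicates 1 and 4 differed from replicates 2 and 3 across many genes in all 4 groups, which is described with Kit and Eng below.

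Per kilobase of annotated exon, the highest member in WT LSKs was Cd34 at a mean of 189 CPM per kilobase, followed by Kit at 138, Cd27 at 115, Cd48 at 95.8, Ly6a at 76.2, Eng at 46.0, Cd24a at 34.9, Procr at 25.3 and Slamf1 at 1.30. This is an order of means. Kit ranged from 743 to 1860 CPM per gene over the WT LSK libraries, so its place beside Cd34 and Cd27 is not read. In UREΔ LSKs, Cd48 (156) and Kit (151) stood first and Cd34 followed at 77.9 CPM per kilobase. The order of Cd48 and Kit is not read, since UREΔ LSK replicate 2 raised the mean of Cd48. That library held 342 CPM of Cd48 per gene, against 92.9 to 155 CPM in the other UREΔ LSK libraries. Cd24a at 1.55 and Slamf1 at 2.20 CPM per kilobase were the lowest in UREΔ LSKs, and their order is not read here, since 1 library, replicate 3, carried the mean of Slamf1. All further levels are CPM per gene, not per kilobase, and are compared between groups and not between genes.

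Transcripts of 3 of the 9 antigens were lower in UREΔ than in WT LSKs, and the same 3 were lower in UREΔ GMPs. These were Cd24a, Cd34 and Cd27, and no member was called higher in either cell type. With the replicate number as a block, Eng was called higher in LSKs (0.63, adjusted p = 0.0434, edgeR). Genes count as called here when edgeR's quasi-likelihood test gave them a Benjamini-Hochberg adjusted p, over all genes tested, of less than 0.05 together with a change of more than 1.5-fold. In LSKs, 0 members were higher and 3 lower, beside 2.38% and 3.76% of all 15154 genes tested (6.14% in either direction). In GMPs, again 0 were higher and 3 lower, beside 4.67% and 3.63% of 13829 genes (8.3% in either direction). Of these 9 genes, 3 called is a larger share than among all genes, but the members were not chosen at random. At an unadjusted p under 0.05, edgeR gave 0 higher and 3 lower members in LSKs and 0 higher and 4 lower in GMPs, and DESeq2 called 0 higher and 3 lower in LSKs and 0 higher and 4 lower in GMPs. The fourth was Procr. The median log2 fold change of the 9 members was 0.10 in LSKs and -0.75 in GMPs, while that of all genes tested was 0.00 and 0.01. UREΔ and WT mice did not overlap for 3 members in LSKs (12.6% of all genes) and for 4 in GMPs (14.8% of all genes).

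**Figure D1:**
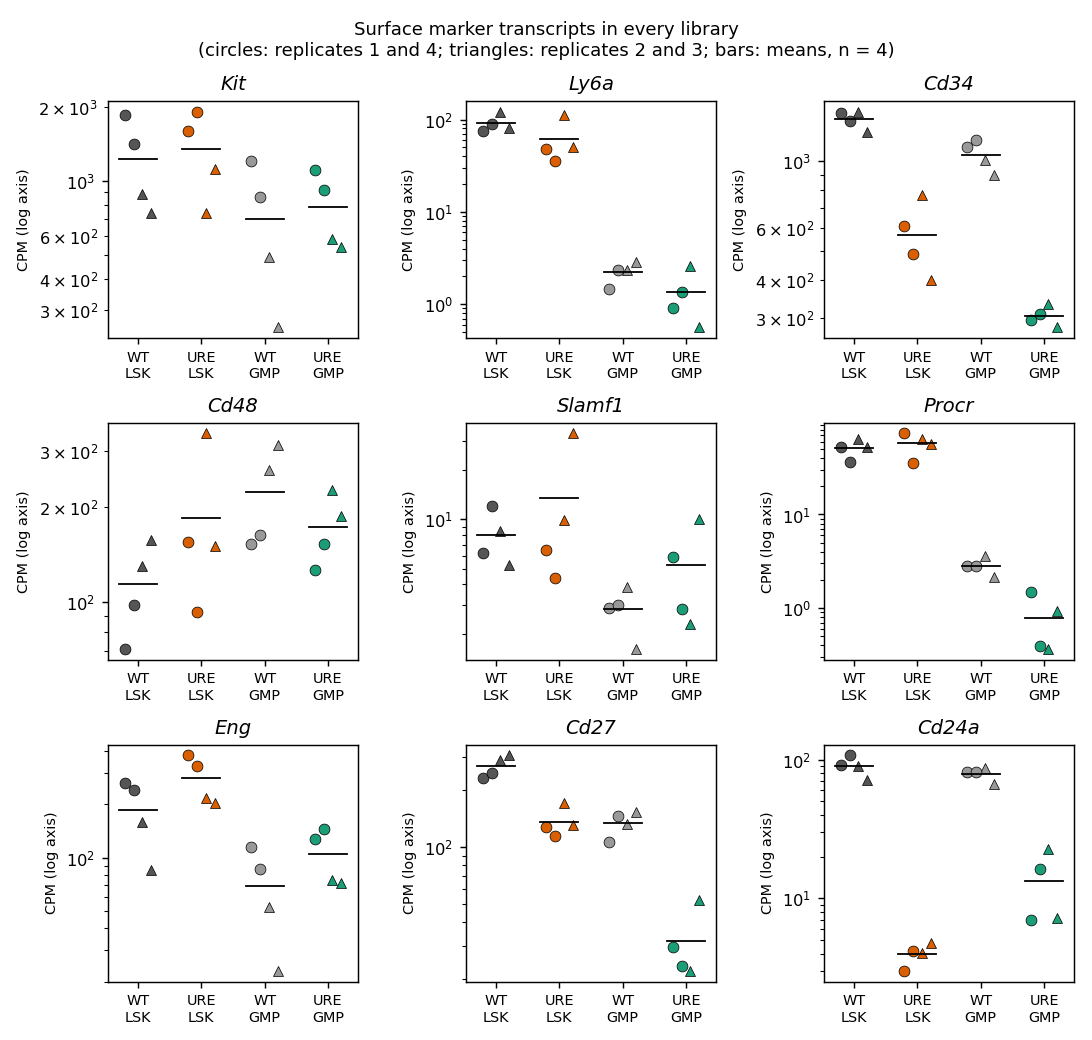
Level of each surface marker transcript in every library, in CPM on a log axis, for the 4 groups (URE in the plot stands for UREΔ). Circles are replicates 1 and 4, triangles replicates 2 and 3, and bars are means of 4 mice. Cd24a lay at 71.5 CPM or more in WT LSKs and at 4.76 CPM or less in UREΔ LSKs, and Ly6a and Procr dropped from LSKs to GMPs in both genotypes.

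Cd24a, a small mucin-like antigen on a lipid anchor, also called heat stable antigen, had the largest genotype difference of the members. It was at 91.2, 90.02, 71.5 and 107 CPM in WT LSK replicates 1 to 4 and at 3.003, 4.04, 4.76 and 4.18 CPM in UREΔ LSKs. The mutant mean was 4.44% of the WT mean, and the highest UREΔ mouse lay far below the lowest WT mouse. The log2 fold change was -4.52 (SE 0.23, adjusted p = 5.2e-05, edgeR with Benjamini-Hochberg adjustment). In GMPs, WT mice had 80.9, 86.3, 66.4 and 80.9 CPM, and UREΔ mice 6.99, 22.8, 7.23 and 16.3 CPM. UREΔ GMPs thus kept 17.0% of the WT level, again without overlap, with a log2 fold change of -2.58 (SE 0.38, adjusted p = 0.0036, edgeR), which was -2.39 and not called in replicates 2 and 3 alone (adjusted p = 0.123, edgeR). WT LSKs and WT GMPs had similar levels, with overlapping ranges and a log2 difference of -0.21 (SE 0.17). In UREΔ mice, GMPs lay above LSKs without overlap, by 1.69 on the log2 scale (SE 0.42, adjusted p = 0.018, edgeR). That call was lost without UREΔ LSK replicate 1, UREΔ GMP replicate 2 or UREΔ GMP replicate 4, with adjusted p between 0.0502 and 0.0539 in edgeR. In replicates 2 and 3 alone the difference was 1.77 and was not called (adjusted p = 0.155, edgeR). Near-identical copies of Cd24a are the pseudogenes Gm15352 and Gm6212, which held 2 and 0 counts over all libraries.

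A difference of the genotype effect between LSKs and GMPs was examined with an interaction term, fitted to the 16 libraries together. Of the 9 members, 1 was called (adjusted p under 0.05), Cd24a, beside 1.22% of 15935 genes (0.866% higher and 0.351% lower). Its loss was smaller in GMPs by 1.93 on the log2 scale (SE 0.44, adjusted p = 0.046, edgeR). This call stood close to the threshold, since it remained only without UREΔ GMP replicate 1 or UREΔ GMP replicate 3 and was lost in the other 14 of 16 fits that leave out 1 library, with adjusted p up to 0.105. With the replicate number as a block, the interaction of Cd24a was 1.83 (adjusted p = 0.0118, edgeR). The call was lost with upper-quartile factors (adjusted p = 0.0509), with no filter (adjusted p = 0.0571), in replicates 1 and 4 alone (adjusted p = 0.112) and in replicates 2 and 3 alone (adjusted p = 0.871, all edgeR). In the fit without a block, the genotype effect on Spi1 also differed between the cell types, by 2.64 on the log2 scale (SE 0.52, adjusted p = 0.0218, edgeR), with more Spi1 left in UREΔ GMPs than in UREΔ LSKs. Whether the 2 differences are related was not tested.

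Cd34, a sialomucin that is low on the most immature stem cells and present on multipotent progenitors and GMPs, fell in both populations. WT LSKs had 1443, 1463, 1246 and 1357 CPM in replicates 1 to 4, and UREΔ LSKs had 609, 771, 401 and 492 CPM. In WT GMPs the level was 1113, 1008, 900 and 1178 CPM, and in UREΔ GMPs 294, 333, 279 and 309 CPM. None of the 4 groups overlapped with another, in the order WT LSK, WT GMP, UREΔ LSK and UREΔ GMP. The log2 fold change between genotypes was -1.31 in LSKs (SE 0.21, adjusted p = 0.0064, edgeR) and -1.80 in GMPs (SE 0.14, adjusted p = 0.00028, edgeR). These correspond to 41.3% and 28.96% of the WT mean. The LSK difference was -1.38 when only replicates 1 and 4 were fitted and -1.23 (adjusted p = 0.11, edgeR) for replicates 2 and 3. From LSKs to GMPs, Cd34 did not pass the test in WT mice (log2 fold change -0.40, SE 0.14, adjusted p = 0.060, edgeR) although their ranges were separate. With the replicate block this WT difference was -0.41 (adjusted p = 0.0068, edgeR), not called because the change was less than 1.5-fold. Cd34 was lower in UREΔ GMPs than in UREΔ LSKs by a log2 fold change of -0.94 (SE 0.20, adjusted p = 0.0091, edgeR). In replicates 2 and 3 alone this UREΔ difference was -0.93 and was not called (adjusted p = 0.21, edgeR). The interaction of Cd34 was -0.51 (SE 0.25) and was not called. Without strand in the libraries, reads of the antisense gene Gm16897, which shares 148 exonic bases with Cd34, cannot be told apart from those of Cd34. Cd34 also holds a stretch of at least 100 bases with 90% identity or more to 20 other genes.

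Cd27, a receptor of the tumor necrosis factor receptor family whose ligand is CD70, fell in both populations as well. It had 231, 290, 306 and 247 CPM in WT LSKs and 127, 172, 130 and 115 CPM in UREΔ LSKs. WT GMPs had 106, 133, 154 and 145 CPM, close to UREΔ LSKs and overlapping with them, and UREΔ GMPs had 29.5, 22.1, 52.5 and 23.4 CPM. The genotypes did not overlap in either cell type. The log2 fold change was -1.01 in LSKs (SE 0.18, adjusted p = 0.0092, edgeR) and -2.08 in GMPs (SE 0.31, adjusted p = 0.0038, edgeR), which left 50.7% and 23.7% of the WT mean. In replicates 2 and 3 alone neither was called, at -1.01 (adjusted p = 0.117, edgeR) and -1.95 (adjusted p = 0.134, edgeR). With sex as a covariate, the LSK difference stayed at -0.997 but its adjusted p rose to 0.0583 (edgeR), while the GMP difference remained called. Cd27 also fell from LSKs to GMPs, by a log2 fold change of -1.01 in WT (adjusted p = 0.0023, edgeR) and -2.12 in UREΔ mice (adjusted p = 0.0014, edgeR). Its interaction of -1.10 (SE 0.34) missed the threshold (adjusted p = 0.15, edgeR). It passed with the replicate block (-1.15, adjusted p = 0.0276, edgeR) and without UREΔ GMP replicate 3 (-1.46, adjusted p = 0.0104, edgeR). Cd27 shares 129 exonic bases with the microRNA gene Mir8113 on the same strand. A stretch of at least 100 bases with 90% identity or more to Cd27 was found in 1 other gene.

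**Figure D2:**
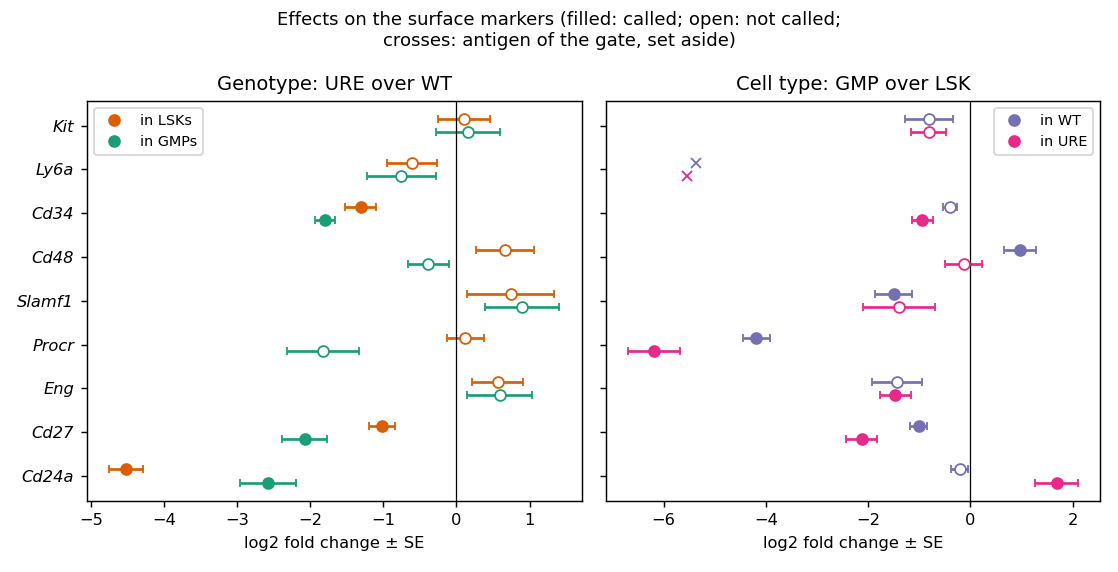
Log2 fold change with SE of each surface marker between genotypes (left, UREΔ over WT, in LSKs and GMPs) and between cell types (right, GMP over LSK, in WT and UREΔ mice). Filled points were called, open points were not, and crosses mark Ly6a, the antigen of the gate, which was set aside between cell types. Cd34, Cd27 and Cd24a lie left of 0 in both cell types with filled points.

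Kit and Ly6a, the antigens by which LSKs were sorted, were not called between genotypes. Kit had 1860, 886, 743 and 1414 CPM in WT LSKs and 1603, 746, 1123 and 1912 CPM in UREΔ LSKs. In GMPs, it had 1205, 492, 256 and 865 CPM in WT and 1110, 582, 541 and 924 CPM in UREΔ mice. The genotypes overlapped widely, and the log2 fold change was 0.10 in LSKs (SE 0.36, adjusted p = 0.97, edgeR) and 0.16 in GMPs (SE 0.44, adjusted p = 0.90, edgeR). Its sign in GMPs turned within replicates 1 and 4 (-0.040). Kit was lower in the GMP than in the LSK library of the same number in 4 of 4 pairs in either genotype, with a log2 fold change of -0.81 in WT (SE 0.47, adjusted p = 0.23, edgeR) and -0.82 in UREΔ mice (SE 0.34, adjusted p = 0.12, edgeR). With the replicate block, both passed, at -0.94 in WT (adjusted p = 0.0011, edgeR) and -0.79 in UREΔ mice (adjusted p = 0.0066, edgeR). The UREΔ difference also passed without UREΔ LSK replicate 2 (-0.97, adjusted p = 0.0477, edgeR).

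Ly6a encodes Sca-1, an antigen held in the membrane by a lipid anchor. It was at 75.0, 122, 80.9 and 89.3 CPM in WT LSKs and at 48.1, 111, 51.0 and 35.1 CPM in UREΔ LSKs. In each pair of equal number the UREΔ LSK library was the lower one, but the groups overlapped through UREΔ replicate 2. The log2 fold change of -0.61 (SE 0.34, adjusted p = 0.50, edgeR) was not called. Without UREΔ LSK replicate 2 it was -1.05 and was called (adjusted p = 0.0395, edgeR). Within replicates 1 and 4 it was -1.01 and was called as well (adjusted p = 0.0414, edgeR). GMPs, sorted without Sca-1, had 1.47 to 2.88 CPM in WT and 0.564 to 2.61 CPM in UREΔ mice, on 11 to 59 counts per library. The GMP mean was 2.46% of the LSK mean in WT and 2.22% in UREΔ mice, which describes the gate. Parts of Ly6a are near-identical to Ly6c1, Ly6c2 and Ly6i, with matches of 245 to 336 bases at 92.6% to 96.6% identity, so that reads may have been divided between them. Of the 13 listed genes of the Ly6 family, 6 could be tested in either cell type. In each, edgeR called 0 higher and 1 lower, beside 2.38% and 3.76% of all genes in LSKs and 4.67% and 3.63% in GMPs. At an unadjusted p under 0.05 edgeR gave 0 higher and 2 lower in each. DESeq2 called 0 higher and 1 lower in LSKs and 0 higher and 2 lower in GMPs. Ly6a was not the gene called by edgeR.

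The SLAM antigens CD150 (Slamf1) and CD48 are read as a pair, since CD150+CD48- LSKs are enriched for stem cells and CD48+ LSKs for multipotent progenitors. The genes start 85118 bases apart on chromosome 1. Slamf1 was low, at 6.25, 8.42, 5.23 and 12.1 CPM in WT LSKs and 6.47, 9.91, 33.4 and 4.39 CPM in UREΔ LSKs. One library, UREΔ LSK replicate 3, stood above all others. The log2 fold change was 0.74 (SE 0.60, adjusted p = 0.72, edgeR) and turned to -0.23 without that library. Fitted to replicates 1 and 4 alone it was -0.78, and to replicates 2 and 3 alone 1.63. In the same library the summed level of 6 megakaryocyte markers was 747 CPM, against 154, 58.9 and 154 CPM in the other UREΔ LSK libraries and 66.7 to 87.4 CPM in WT LSKs, and Itga2b, one of them, was at 233 CPM. The part of these cells in the Slamf1 value was not tested. Slamf1 holds a stretch of at least 100 bases with 90% identity or more to 583 other genes, whose reads could be counted in part for Slamf1.

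In GMPs, Slamf1 was at 2.86, 3.86, 1.61 and 3.01 CPM in WT and 5.88, 2.30, 10.0 and 2.82 CPM in UREΔ mice, with overlap (log2 fold change 0.90, SE 0.51, adjusted p = 0.38, edgeR). It was lower in WT GMPs than in WT LSKs without overlap (-1.504, SE 0.36, adjusted p = 0.013, edgeR). In replicates 2 and 3 alone this WT difference was -1.24 and was not called (adjusted p = 0.176, edgeR). In UREΔ mice the difference was similar in size, -1.40, but with a larger SE of 0.71 (adjusted p = 0.20, edgeR), and was called with the replicate block (-1.20, adjusted p = 0.0292, edgeR).

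Cd48, whose product is a ligand of CD244, was at 70.8, 130, 157 and 97.8 CPM in WT LSKs and 155, 342, 150 and 92.9 CPM in UREΔ LSKs. WT GMPs had 153, 262, 315 and 164 CPM and UREΔ GMPs 126, 226, 188 and 153 CPM. All neighbouring groups in the order of means overlapped. The genotype difference was 0.67 in LSKs (SE 0.40, adjusted p = 0.53, edgeR) and -0.39 in GMPs (SE 0.28, adjusted p = 0.52, edgeR). UREΔ was the lower library in 4 of 4 pairs in GMPs but in 2 of 4 in LSKs. The interaction of -1.07 (SE 0.52) was not called (adjusted p = 0.45, edgeR). In WT mice Cd48 was higher in GMPs than in LSKs by 0.96 on the log2 scale (SE 0.31, adjusted p = 0.046, edgeR), in 4 of 4 pairs. The call was lost without WT LSK replicate 1, 2 or 4 or WT GMP replicate 2 or 3 (adjusted p between 0.0744 and 0.110, edgeR). In UREΔ mice, GMPs and LSKs differed by -0.13 (SE 0.36), which was not called.

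The ratio of Slamf1 to Cd48 within a library was taken from log2 CPM with a prior count of 2, added before the log. It does not depend on the scaling of library size except through that prior, which weighs most at few counts. Its log2 value averaged -3.83 ± 0.80 (SD, n = 4) in WT LSKs and -4.05 ± 1.29 in UREΔ LSKs, and -6.25 ± 0.87 in WT GMPs and -5.23 ± 1.12 in UREΔ GMPs. Of the UREΔ LSK libraries, 3 lay between -5.10 and -4.38 and replicate 3 at -2.17, above the WT range of -4.89 to -3.01. The genotype difference was -0.22 in LSKs (exact two-sided permutation p = 0.80) and 1.03 in GMPs (exact two-sided permutation p = 0.23), where the smallest p that 4 against 4 mice allow is 0.0286. Without UREΔ LSK replicate 3 the LSK difference was -0.85, and within replicates 2 and 3 alone it was 0.78. The GMP difference ranged from 0.60, without WT GMP replicate 3, to 1.47 when single libraries were left out.

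**Figure D3:**
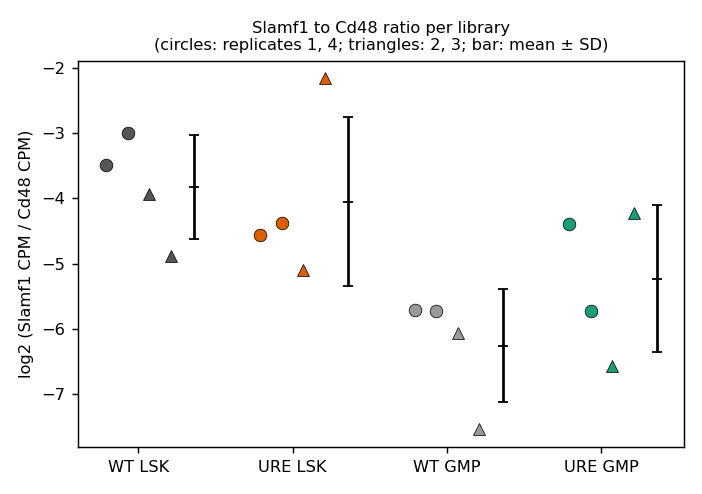
Log2 ratio of Slamf1 to Cd48 CPM (prior count of 2) in each library, by group, with the mean and SD of 4 mice beside the points. Circles are replicates 1 and 4 and triangles replicates 2 and 3. GMPs lie lower than LSKs in WT mice, and one UREΔ LSK library, replicate 3 at -2.17, lies above the other 15.

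Procr, the endothelial protein C receptor EPCR, marks stem cells and differed widely between the cell types. WT LSKs had 51.9, 63.9, 53.2 and 36.8 CPM and UREΔ LSKs 73.4, 64.4, 56.0 and 35.5 CPM, with a log2 fold change of 0.12 (SE 0.26, adjusted p = 0.94, edgeR). WT GMPs had 2.82, 3.57, 2.15 and 2.85 CPM, and UREΔ GMPs 1.495, 0.366, 0.923 and 0.394 CPM, on 7 to 31 counts per UREΔ library. The GMP level was lower than that of LSKs without overlap in both genotypes, by a log2 fold change of -4.18 in WT (SE 0.26, adjusted p = 2.4e-05, edgeR) and -6.18 in UREΔ mice (SE 0.51, adjusted p = 0.00011, edgeR). Every UREΔ GMP library lay below every WT GMP library (exact two-sided permutation p = 0.0286, the smallest possible). Its log2 fold change of -1.82 (SE 0.49) missed the threshold by a small margin (adjusted p = 0.051, edgeR). It passed with the replicate block (-1.97, adjusted p = 0.0281, edgeR), with DESeq2 (-1.84, adjusted p = 0.0027), with relative-log and upper-quartile size factors (adjusted p = 0.0490 and 0.0485, edgeR), in a joint fit of all libraries (adjusted p = 0.0056, edgeR) and without UREΔ GMP replicate 1 (-2.33, adjusted p = 0.0280, edgeR). It did not pass with sex as a covariate (-1.61, adjusted p = 0.14, edgeR), nor in replicates 1 and 4 alone (-1.58, adjusted p = 0.19, edgeR) or 2 and 3 alone (-2.15, adjusted p = 0.31, edgeR). The interaction of -1.98 (SE 0.51) was not called (adjusted p = 0.073, edgeR) but passed with the block (-2.0, adjusted p = 0.0108, edgeR), with DESeq2 (adjusted p = 0.0052), with sex as a covariate (-2.09, adjusted p = 0.0413, edgeR) and without UREΔ GMP replicate 1 (-2.50, adjusted p = 0.0219, edgeR).

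Eng, which encodes endoglin, a co-receptor of the transforming growth factor beta family, had 262, 159, 84.7 and 240 CPM in WT LSKs and 377, 216, 203 and 326 CPM in UREΔ LSKs. In GMPs it had 115, 52.9, 22.97 and 86.7 CPM in WT and 127, 75.2, 72.1 and 144 CPM in UREΔ mice. The UREΔ library was the higher one in 4 of 4 pairs of equal number in both cell types, while the groups overlapped. The log2 fold change was 0.56 in LSKs (SE 0.34, adjusted p = 0.55, edgeR) and 0.59 in GMPs (SE 0.45, adjusted p = 0.55, edgeR). With the replicate block it was 0.63 in LSKs and was called (adjusted p = 0.0434, edgeR), and 0.74 in GMPs and was not (adjusted p = 0.064, edgeR). GMPs had less Eng than LSKs, by a log2 fold change of -1.44 in WT (SE 0.50, adjusted p = 0.058, edgeR) and -1.47 in UREΔ mice (SE 0.30, adjusted p = 0.0078, edgeR). The WT difference was called with the block (-1.54, adjusted p = 2.9e-05, edgeR), with DESeq2 (-1.36, adjusted p = 0.028), with upper-quartile factors (adjusted p = 0.030, edgeR), in the joint fit (adjusted p = 0.024, edgeR) and in replicates 1 and 4 alone (adjusted p = 0.012, edgeR). It was called as well without WT LSK replicate 3 (-1.67, adjusted p = 0.0338, edgeR) or WT GMP replicate 1 (-1.76, adjusted p = 0.0305, edgeR). Eng shares 61 exonic bases with Fpgs on the opposite strand, whose reads the unstranded libraries cannot separate.

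Between the cell types, 8 members could be tested once Ly6a was set aside. In WT mice, 1 was higher in GMPs (Cd48, beside 11.5% of 14767 genes) and 3 were lower (Slamf1, Procr and Cd27, beside 15.8%), where 27.3% of genes were called in all. In UREΔ mice, 1 was higher (Cd24a, beside 9.2% of 14395 genes) and 4 were lower (Cd34, Procr, Eng and Cd27, beside 12.6%), where 21.8% of genes were called in all. With the replicate block, Kit and Eng were called lower in WT GMPs as well, and Kit and Slamf1 in UREΔ GMPs. The groups were separate for 4 of these 8 members in WT, where 31.4% of all genes were, and for 5 of 8 in UREΔ mice, where 26.6% were. The median log2 fold change of the 8 was -0.91 in WT and -1.17 in UREΔ mice, against -0.09 for all genes tested in each. These comparisons use the same libraries as those between genotypes.

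Kit and Eng varied more between replicates than between genotypes, and in the same way. In all 4 groups, both libraries numbered 1 and 4 lay above both libraries numbered 2 and 3, by 0.85 to 1.52 on the log2 scale for Kit and by 0.75 to 1.52 for Eng. This pattern was common, since 17.8% of the 8993 genes whose average reached 3 log2 CPM showed it in all 4 groups. Cd48 went the other way, with replicates 2 and 3 above 1 and 4 in 3 of 4 groups and a mean difference of the same sign in the fourth. The opposite order in all 4 groups was found for 8.76% of genes. The other members showed separate sets in at most 2 groups. The labels do not say what sets these numbers apart, and it was not tested.

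**Figure D4:**
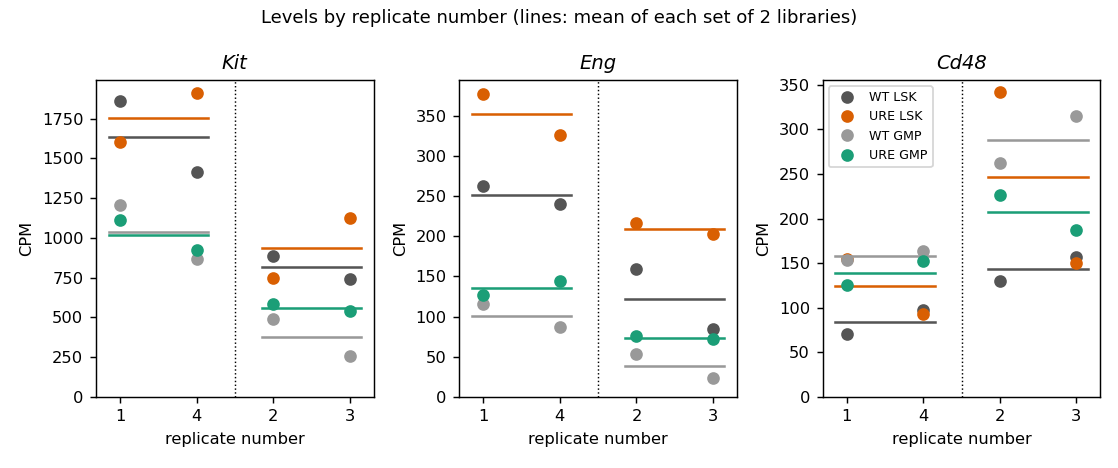
CPM of Kit, Eng and Cd48 in each library against its replicate number, with replicates 1 and 4 left of the dotted line and 2 and 3 right of it. Short lines are the means of each set of 2 libraries. In all 4 groups Kit and Eng are higher left of the line, and the group means of Cd48 are higher right of it.

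The pattern over the 16 libraries was compared with that of the 8993 genes whose average reached 3 log2 CPM, as a description. The libraries share genotype, cell type and replicate number, so that high correlations are common. The closest genes were Adgrg1 for Kit (Pearson r = 0.983), Laptm4b for Ly6a (0.984), Oas1a for Cd34 (0.971), Prxl2a for Slamf1 (0.841), Gcnt2 for Procr (0.984), Mfng for Eng (0.971), Krt18 for Cd27 (0.972) and Fgd2 for Cd24a (0.971). Slamf1 had the weakest nearest match of these 8.

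A wider list of 29 stem and progenitor surface antigens moved in both directions. In LSKs, 3 of 29 were called higher and 5 lower, beside 2.38% and 3.76% of all genes, and in GMPs 3 of 28 tested were higher and 3 lower, beside 4.67% and 3.63%. DESeq2 called 5 higher and 6 lower in LSKs and 4 higher and 3 lower in GMPs, and at an unadjusted p under 0.05 edgeR gave 5 and 8 in LSKs and 6 and 6 in GMPs. Their median log2 fold change was -0.26 in LSKs and -0.01 in GMPs. Cd38, an ectoenzyme found on adult mouse stem cells, rose in LSKs from 9.20, 9.60, 3.28 and 7.62 CPM in WT to 39.0, 51.5, 42.7 and 20.5 CPM in UREΔ mice (log2 fold change 2.35, SE 0.39, adjusted p = 0.0068, edgeR). It stayed at 3.08 to 7.68 CPM in WT GMPs and at 4.18 to 7.59 CPM in UREΔ GMPs (log2 fold change 0.053, SE 0.33). Cd55, which limits complement, rose in LSKs by 1.86 on the log2 scale (SE 0.28, adjusted p = 0.0044, edgeR). Itga2b (CD41), an integrin of platelets and some stem cells, rose in LSKs by 1.88 (SE 0.41, adjusted p = 0.026, edgeR), but among fits that leave out 1 of the 8 LSK libraries it was called only without UREΔ LSK replicate 2 or 3, and it was not called with sex as a covariate (adjusted p = 0.10, edgeR).

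Flt3, the cytokine receptor gained by multipotent progenitors with lymphoid potential, fell from a mean of 753 CPM in WT to 242 CPM in UREΔ LSKs (log2 fold change -1.67, SE 0.38, adjusted p = 0.030, edgeR) and from 133 to 19.4 CPM in GMPs (-2.78, SE 0.43, adjusted p = 0.0045, edgeR). In LSKs its call remained only without WT LSK replicate 3 or UREΔ LSK replicate 1 when single libraries were left out, and it was lost with sex as a covariate (adjusted p = 0.10, edgeR). Tek, the angiopoietin receptor TIE2, was lower by -2.33 in LSKs (SE 0.31, adjusted p = 0.0023, edgeR) and by -4.89 in GMPs (SE 0.57, adjusted p = 0.0012, edgeR). Cd9, a tetraspanin, rose in GMPs by 1.13 (SE 0.16, adjusted p = 0.0027, edgeR), and its LSK value was 0.63 (SE 0.35). Pecam1 (CD31) rose in GMPs by 0.98 (SE 0.19, adjusted p = 0.013, edgeR). In LSKs it was at -0.60 (SE 0.17, adjusted p = 0.070, edgeR), which passed with the replicate block (-0.61, adjusted p = 0.0358, edgeR) and without UREΔ LSK replicate 2 (-0.69, adjusted p = 0.0444, edgeR). In replicates 2 and 3 alone, the GMP differences of Flt3, Tek, Cd9 and Pecam1 kept their sign but were not called (adjusted p between 0.0587 and 0.149, edgeR).

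The Fc gamma receptor genes Fcgr3 (CD16) and Fcgr2b (CD32) encode the antigens by which GMPs were gated. Fcgr3 was higher in UREΔ GMPs, at 508, 1329, 764 and 697 CPM against 229, 424, 387 and 248 CPM in WT (log2 fold change 1.34, SE 0.32, adjusted p = 0.033, edgeR). When single libraries were left out, it remained called only without UREΔ GMP replicate 1, and it was lost with upper-quartile factors (1.29, adjusted p = 0.0571, edgeR). Fcgr2b was at 36.6, 87.2, 36.03 and 47.6 CPM in UREΔ and 83.5, 96.1, 90.4 and 87.0 CPM in WT GMPs (-0.80, SE 0.27, adjusted p = 0.12, edgeR), which passed with the replicate block (-0.89, adjusted p = 0.0215, edgeR) and without UREΔ GMP replicate 2 (-1.18, adjusted p = 0.0074, edgeR). In LSKs, which are not gated on them, Fcgr2b fell from 357 to 408 counts per WT library to 7, 31, 0 and 16 counts in UREΔ libraries (log2 fold change -4.77, SE 0.78, adjusted p = 0.0064, edgeR).

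**Figure D5:**
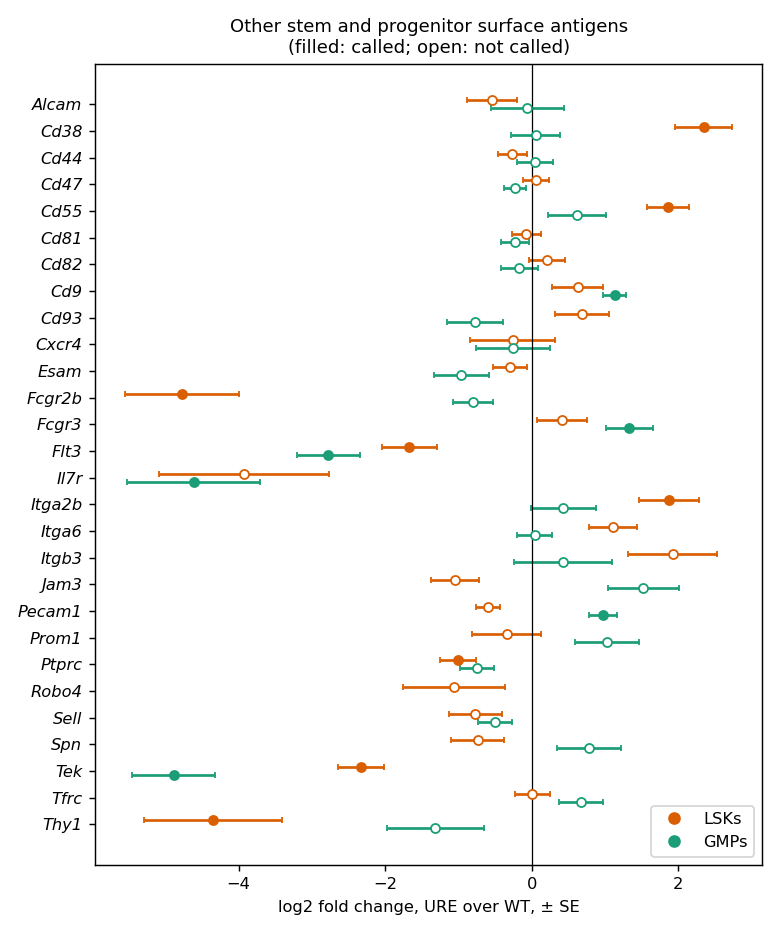
Log2 fold change with SE, UREΔ over WT, of 28 further stem and progenitor surface antigens in LSKs and in GMPs. Filled points were called and open points were not; Robo4 was not tested in GMPs. Cd38, Cd55 and Itga2b lie to the right with filled points in LSKs, and Flt3 and Tek lie to the left in both cell types.

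Of 26 ligands and signalling partners of the members, 22 were tested. In LSKs 1 was higher and 3 lower, beside 2.38% and 3.76% of all genes (edgeR, with 2 higher and 4 lower at an unadjusted p under 0.05 and 2 higher and 3 lower with DESeq2). In GMPs 0 were higher and 6 lower, beside 4.67% and 3.63% (edgeR, with 0 higher and 8 lower at an unadjusted p under 0.05 and 0 higher and 6 lower with DESeq2). Their median log2 fold change was -0.04 and -0.15. Ptpn6, the phosphatase SHP-1 that restrains Kit signalling, was lower in LSKs by a log2 fold change of -1.27 (SE 0.16, adjusted p = 0.0014, edgeR) and in GMPs by -0.66 (SE 0.17, adjusted p = 0.043, edgeR), the latter remaining called only without WT GMP replicate 3 when single libraries were left out, and lost with no filter (adjusted p = 0.0902, edgeR). Traf5, an adaptor of Cd27, was lower by -1.65 in LSKs (SE 0.31, adjusted p = 0.013, edgeR) and by -2.52 in GMPs (SE 0.32, adjusted p = 0.0019, edgeR). In LSKs it was not called without WT LSK replicate 2 (-1.46, adjusted p = 0.0547, edgeR). Neither was it called there in replicates 1 and 4 alone (-1.72, adjusted p = 0.0509, edgeR) or 2 and 3 alone (-1.60, adjusted p = 0.134, edgeR). In GMPs Traf5 was not called in replicates 2 and 3 alone (-2.27, adjusted p = 0.167, edgeR). F2r, the thrombin receptor PAR1 through which EPCR-bound protein C can signal, was higher in LSKs by 2.06 (SE 0.27, adjusted p = 0.0023, edgeR), and its GMP value was 0.89 (SE 0.54). Kitl, the ligand of Kit, was at 0 to 4.68 CPM in every library and was not called. Cd244a, the receptor of CD48, was not called either (log2 fold change 0.45 in LSKs, SE 0.31, and 0.37 in GMPs, SE 0.34).

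Siglecg encodes a receptor of CD24 and was singled out after its values were seen. WT LSK libraries held 404, 382, 328 and 355 counts, and UREΔ LSK libraries 0, 1, 0 and 0. Per count sequenced, the WT to UREΔ ratio was 1423, with a 95% exact interval from 255 to 56241 that covers counting error only. WT GMPs had 167 to 392 counts and UREΔ GMPs 17 to 97, a log2 fold change of -2.48 (SE 0.53, adjusted p = 0.020, edgeR). That call was lost without WT GMP replicate 4, UREΔ GMP replicate 1 or UREΔ GMP replicate 4 (adjusted p between 0.0512 and 0.0718, edgeR). Siglecg and Cd24a were thus both lower in UREΔ mice of either cell type.

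In the SLAM family of 9 genes, which includes Slamf1, Cd48 and Cd244a, edgeR called 0 higher and 1 lower in LSKs, beside 2.38% and 3.76% of all genes. At an unadjusted p under 0.05 and with DESeq2, 0 were higher and 2 lower. In GMPs 1 of 6 tested was higher and 1 lower with edgeR, beside 4.67% and 3.63% of all genes. There DESeq2 called 1 higher and 3 lower. Cd84, the higher one, rose by 0.91 (SE 0.15, adjusted p = 0.0054, edgeR) and was at -0.11 in LSKs (SE 0.28). Among 14 stem cell transcription factors and other intracellular stem cell genes, edgeR called 0 higher and 0 lower in either cell type, beside the same shares of all genes. At an unadjusted p under 0.05 it gave 0 higher and 3 lower in LSKs and 2 higher and 2 lower in GMPs, and DESeq2 called 0 higher and 1 lower in each. Hlf had a mean of 317 CPM in WT and 375 CPM in UREΔ LSKs (log2 fold change 0.21, SE 0.20), and Mecom had 137 and 125 CPM (-0.16, SE 0.25), with overlapping genotypes for both. In GMPs Hlf was at 23.02 and 26.1 CPM (0.18, SE 0.29) and Mecom at 10.3 and 12.3 CPM (0.25, SE 0.39).

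Some markers of other cell types moved with genotype in the same libraries. Beside the edgeR counts below, 2.38% of all genes were called higher and 3.76% lower in LSKs. In GMPs these shares were 4.67% and 3.63%. Of 10 neutrophil progenitor markers, 2 were higher and 1 lower in LSKs, and DESeq2 called 5 higher and 1 lower. In GMPs edgeR called 1 higher and 0 lower (6 higher and 0 lower at an unadjusted p under 0.05), and DESeq2 called 5 higher and 0 lower, where their summed level ranged from 54723 to 70153 CPM in WT and from 73980.1 to 159717 CPM in UREΔ mice. Of 8 monocyte and dendritic cell markers, 7 were tested, and 0 were higher with 5 lower in LSKs and 6 lower in GMPs (0 higher at an unadjusted p under 0.05 and with DESeq2). Their sum was 204 to 388 CPM in WT LSKs, 53.6 to 122 CPM in UREΔ LSKs, 891 to 1234 CPM in WT GMPs and 376 to 1435 CPM in UREΔ GMPs. Mast cell and basophil markers summed to 23.6 to 44.9 CPM in WT LSKs and 115 to 199.9 CPM in UREΔ LSKs, with 3 of 5 tested higher and 0 lower with edgeR and 3 higher and 1 lower with DESeq2 and also at an unadjusted p under 0.05. In GMPs they summed to 631 to 1241 CPM in WT and 857 to 2441 CPM in UREΔ mice, with 2 of 6 higher and 2 lower by either tool. B cell markers summed to 58.6 to 84.6 CPM in WT LSKs and 25.0 to 36.9 CPM in UREΔ LSKs, and to 62.2 to 90.5 CPM and 10.9 to 26.2 CPM in GMPs, with edgeR calling 0 higher and 1 lower of 4 tested in LSKs and of 2 tested in GMPs. DESeq2 called 0 higher and 2 lower in LSKs and 1 higher and 1 lower in GMPs, and at an unadjusted p under 0.05 there were 0 higher and 1 lower, and 1 higher and 1 lower. In UREΔ LSKs, 2 of the 6 B cell markers were at 0. Most of each B cell sum was Cd79b alone, at 57.3 to 81.2 CPM in WT LSKs and 23.6 to 34.8 CPM in UREΔ LSKs. In GMPs Cd79b was at 61.2 to 88.7 CPM in WT and 8.15 to 23.4 CPM in UREΔ mice. The sums thus do not show a fall of the list as a whole. Erythroid markers summed to 44.9 to 130 CPM in WT LSKs and 22.6 to 158 CPM in UREΔ LSKs, and of the 8 edgeR called 0 higher and 1 lower, while 2 were higher and 2 lower at an unadjusted p under 0.05 and also with DESeq2. T and NK cell markers summed to at most 4.002 CPM in any group. Endothelial and stromal markers, which bear on Procr, Eng and Tek, summed to 40.8 to 55.3 CPM in WT LSKs and 34.3 to 58.0 CPM in UREΔ LSKs, and to 4.15 to 8.14 CPM and 5.59 to 23.5 CPM in GMPs. The members of that list went opposite ways. In LSKs edgeR called 0 of 6 tested (1 higher and 3 lower at an unadjusted p under 0.05, 1 higher and 1 lower with DESeq2), and in GMPs 1 of 3 higher and 0 lower (1 higher and 1 lower by either of the other counts). Singled out after their values were seen, the endothelial gene Emcn had a mean of 41.9 CPM in WT and 24.1 CPM in UREΔ LSKs and 3.599 and 0.758 CPM in GMPs, and the stromal collagen gene Col1a2 had 1.58 and 13.7 CPM in LSKs and 0.602 and 11.7 CPM in GMPs. The part of these cell types in the differences of Cd34, Cd27 and Cd24a was not tested.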

How the data were processed

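RNA from LSKs and GMPs of 4 WT and 4 UREΔ mice each (up to 10 ng per sample, unstranded, no molecular identifiers) was sequenced. The authors quantified transcripts with Salmon and summed them per gene with tximport. The deposited values are estimated counts per gene, rounded to whole numbers and not normalised. The submitters' processing notes name GRCm38, and the annotation release of these libraries is not given in the sources used here. Gene identifiers were named with GENCODE M21, the annotation at hand (54094 of 54347 matched, 253 not). Total counts were 20028302 to 29128858 per library.

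Each comparison was fitted on its own 8 libraries, and the interaction on all 16, with edgeR 4.0.16 in R 4.3.3 (TMM factors, filterByExpr, quasi-likelihood test, Benjamini-Hochberg adjustment over all genes tested). The SE is the log2 fold change divided by the root of F. CPM used TMM factors over all 16 libraries. Single values were compared by exact two-sided permutation. DESeq2 1.42.0, other size factors and filters, a replicate block, a joint fit, subsets of replicates and leaving out each library were the alternatives, and a sex term was added after seeing the data. Scripts were tested on simulated data. Figures were drawn with matplotlib 3.10.9.

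Deviations of libraries with the same replicate number correlated in every pair. Between genotypes, r was 0.28 to 0.59 in LSKs and 0.24 to 0.55 in GMPs. Between cell types, it was 0.42 to 0.71 in WT and 0.38 to 0.52 in UREΔ mice. Different numbers within a set of replicates also correlated (means of 0.22 to 0.26), while those from different sets did not (-0.39 to -0.32). Between genotypes, replicate 4 of one correlated more with replicate 1 of the other than with its replicate 4. The values were 0.40 against 0.28 in LSKs and 0.39 against 0.24 in GMPs. The numbers thus pair the samples between cell types, but only in part between genotypes. Whether LSKs and GMPs of one number came from one mouse is not stated. P-values of the fits without a block measure the spread between libraries of a group, which includes the difference between the sets of replicates. Fits that held both cell types, without a block, treated LSK and GMP libraries of one number as independent. The members and lists, and the further genes named from them, were chosen with earlier results of these data known. By rule, named genes were the members, Spi1, up to 8 called genes per list whose mean level reached 3 log2 CPM, further genes (Flt3, Cd9, Itga2b, Fcgr3, Fcgr2b, Kitl, Cd244a, Hlf and Mecom) and the 3 genes closest to each member by Pearson r. Of these a part is printed, chosen after their values were seen, with the closest gene for 8 members. Some results are not reported here. Promoter sequences are from RefSeq (GRCm38.p6).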

Additional observations from a re-analysis of the deposited data

Results flagged for a closer look

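For 6 of the genes named here, among 194 called in all, the genotype effect differed between LSKs and GMPs in the interaction test (edgeR, Benjamini-Hochberg adjustment). The values are the log2 fold change in GMPs minus that in LSKs. Cd24a had 1.93 (adjusted p = 0.046), its call being lost in 14 of 16 fits that leave out 1 library. Spi1, the targeted gene, had 2.64 (adjusted p = 0.022). Cd38 had -2.32 (adjusted p = 0.041), with a rise in UREΔ LSKs and a fold change near 0 in GMPs. Fcgr2b had 3.95 (adjusted p = 0.017), with its loss in LSKs. Pecam1 had 1.56 (adjusted p = 0.0077), being higher in UREΔ GMPs and not called in LSKs. Siglecg had 7.35 (adjusted p = 0.0016), a fitted value that depends on the prior count, since UREΔ LSKs held 1 count in all. None of 48 groups of 4 libraries examined, for the members and Spi1 among others, held a library past Dixon's criterion at 95%, where chance gives about 2.4.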

How the results depend on the processing

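Cd34, Cd27 and Cd24a kept their direction in both genotype comparisons under every alternative run. Over the members, 780 alternative values kept direction and call, 38 lost and 27 gained a call, and 46 changed sign, and over the other named genes 646, 54, 6 and 16. No scaling moved the median of all genes by over 0.1. Counts of Slamf1, Procr and Ly6a in GMPs were low, down to 7 per library, which limits the precision of their values. Where not due to fewer samples, as with subsets of replicates, the cause was not tested.

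Genes called in LSKs numbered 930, and 1631 with DESeq2, 1433 with the replicate block, 386 in replicates 2 and 3 alone, 518 with the sex term and 565 to 961 without single libraries (565 without WT LSK replicate 2, 606 without WT LSK replicate 4). In GMPs they numbered 1148, and 1995, 2260, 108, 628 and 715 to 1176 (715 without UREΔ GMP replicate 4). Between cell types replicates 2 and 3 alone gave 2507 of 4037 in WT and 810 of 3133 in UREΔ mice, and single libraries left out gave 3216 to 4257 and 2193 to 3369. The interaction, with 194 genes, gave 674 with DESeq2, 1047 with the block, 2 in replicates 2 and 3 alone and 84 to 283 without single libraries (84 without UREΔ GMP replicate 4, 102 without WT GMP replicate 4, 105 without WT LSK replicate 1 or 2 or UREΔ LSK replicate 4, 109 without WT LSK replicate 4 and 115 without WT GMP replicate 2).

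Members called were 1 in replicates 2 and 3 alone in LSKs and in GMPs. Without single libraries they were 3 to 4 in each, 4 to 6 and 5 to 7 between cell types (Ly6a included), and 0 to 2 for the interaction. The interaction gave 2 members with DESeq2 and with the sex term, 3 with the block, and 0 with upper-quartile factors, no filter, replicates 1 and 4 alone or replicates 2 and 3 alone. Beyond the calls given in the report, the replicate block changed no call of a member. Cd48 between cell types in WT also lost its call with upper-quartile factors (adjusted p = 0.105), a stricter filter (0.0549) and a joint fit (0.0589), and Slamf1 with a joint fit (0.0751, all edgeR). With the sex term, Traf5 in LSKs and Fcgr3, Pecam1, Ptpn6 and Siglecg in GMPs were not called. In replicates 2 and 3 alone, Itga2b and Ptpn6 in LSKs and Spi1, Fcgr3, Ptpn6, Cd84 and Siglecg in GMPs were not called. Ptpn6 in GMPs was not called in replicates 1 and 4 alone either.

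Signs turned for values that were not called. In LSKs, the Slamf1 to Cd48 ratio was 0.78 in replicates 2 and 3 alone (-0.85 to 0.13 without single libraries). Replicates 1 and 4 alone gave Slamf1 -0.78, Cd9 -0.040 and Hlf -0.043, replicates 2 and 3 alone Cd84 0.12 and Mecom 0.081, and the block Kitl -0.034. In GMPs, replicates 1 and 4 alone gave Kit -0.040, Cd38 -0.052 and Hlf -0.31, and the sex term Cd38 -0.043. Cd48 between cell types in UREΔ mice was 0.18 in replicates 1 and 4 alone. For the interaction, Kit was -0.00073 with upper-quartile factors, -0.0083 with no filter and -0.13 in replicates 1 and 4 alone. Eng was -0.026 with DESeq2, -0.025 with relative-log and -0.030 with upper-quartile factors, -0.040 with no filter and -0.060 in replicates 1 and 4 alone. Ly6a was 0.24 in replicates 1 and 4 alone and Slamf1 -0.45 in replicates 2 and 3 alone. Without single libraries, LSK values ranged from -0.11 to 0.39 for Kit, -0.23 to 1.03 for Slamf1, -0.015 to 0.30 for Procr and -0.48 to 0.049 for Cd84. GMP values ranged from -0.13 to 0.56 for Kit, -0.16 to 0.25 for Cd38, -0.71 to 0.57 for Kitl and -0.020 to 0.62 for Mecom. Cd48 between cell types in UREΔ mice ranged from -0.31 to 0.38. Interaction values ranged from -0.26 to 0.41 for Kit, -0.68 to 0.31 for Ly6a, -0.41 to 1.09 for Slamf1 and -0.30 to 0.35 for Eng.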
